A study of Mus musculus with 16 samples.

Results

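Pulmonary neuroendocrine cells are rare epithelial cells of the airways, and 7 genes that mark them were followed here: Insm1, Dll3, Chga, Resp18, Syp, Calca and Grp. They were taken by gene symbol, all 7 were found, and they are 7 of the 57180 genes counted. The rule names them by symbol and uses no measured value. Whole fetal lungs, male by the series' design text, were taken at E14.5, counted in days of embryonic development. There are 16 libraries, 4 for each combination of strain, C57BL/6J (called B6 here) or A/J, and treatment of the mother. Dams were given BMS493, which shuts down signalling by every retinoic acid receptor as an inverse agonist, by mouth at 3.75 µg per g per day from E9.5 on, or corn oil alone as the control. No allele or transgene is given for either strain. Litters are not named in the labels, so p-values measure the spread between these samples only.

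Neuroendocrine cells arise from airway progenitors, and Notch signalling through HES1 keeps neighbouring progenitors out of this fate. The cells later gather into small bodies at airway branch points, receive nerve fibres, and store peptides and amines in dense-core granules that they release when they sense changes in the airway. Retinoic acid, the active form of vitamin A, patterns the early lung, and BMS493 lowers the activity of its receptors.

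Insm1, Syp, Grp and Dll3 were counted in every library and passed the filter on low counts, and Calca, Chga and Resp18 did not pass it. Grp, which encodes gastrin-releasing peptide, stood in A/J control lungs at 0.37 times its B6 level, a difference that passed the test. The call was lost without replicate 3 of the B6 controls and when counts of a single strand were used. Insm1, a transcription factor of endocrine differentiation, had the next largest strain difference in control lungs, and it missed the threshold. None of the 4 tested genes passed the test for BMS493 in either strain. In whole lungs, fewer cells of a type and less RNA per cell cannot be told apart.

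Between 20105760 and 31838104 fragments were counted per library, of which 71.7% to 76.9% were assigned to a gene. Levels are given as CPM, the count of a gene scaled to a common library size. Libraries of a group differed by more than counting error in 24 of 24 pairs. The B6 BMS493 group was the most uneven. Its 4 libraries had 179, 867, 590 and 288 CPM of Sftpc, the surfactant gene of the distal epithelium, in replicates 1 to 4, against 248 to 341 CPM in B6 controls. Replicates 2 and 3 stood apart, and the neuroendocrine genes are given below without each of them for BMS493 in B6 and for the strains in BMS493 lungs.

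The promoter windows of the 3 least abundant genes are shown first because they carry, or lack, the letters of an E-box, read by basic helix-loop-helix factors, and of a retinoic acid receptor half-site. RefSeq windows of the 250 bases before the gene start, build GRCm38.p6, were available for Calca, Chga, Syp, Dll3 and Resp18. They come from the C57BL/6J reference, and A/J may differ. Capitals mark CAGCTG, the E-box searched, which reads the same on both strands, and AGGTCA, a half-site of retinoic acid receptors, searched on both strands. Neither motif overlaps the other. Chga lies at chr12:102554691-102554940 on the + strand, Resp18 at chr1:75278416-75278665 on the − strand, and Calca at chr7:114636358-114636607 on the − strand, each written in the direction of the gene.
Chga: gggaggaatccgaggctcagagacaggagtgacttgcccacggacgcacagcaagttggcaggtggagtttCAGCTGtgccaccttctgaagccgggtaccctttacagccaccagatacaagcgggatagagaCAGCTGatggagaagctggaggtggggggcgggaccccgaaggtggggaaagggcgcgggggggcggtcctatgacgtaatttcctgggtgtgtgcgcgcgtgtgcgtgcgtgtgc
Resp18: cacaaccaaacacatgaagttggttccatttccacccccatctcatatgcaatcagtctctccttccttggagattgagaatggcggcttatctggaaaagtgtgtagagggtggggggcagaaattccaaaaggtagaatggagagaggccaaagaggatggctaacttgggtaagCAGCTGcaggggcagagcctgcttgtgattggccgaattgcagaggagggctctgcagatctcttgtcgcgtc
Calca: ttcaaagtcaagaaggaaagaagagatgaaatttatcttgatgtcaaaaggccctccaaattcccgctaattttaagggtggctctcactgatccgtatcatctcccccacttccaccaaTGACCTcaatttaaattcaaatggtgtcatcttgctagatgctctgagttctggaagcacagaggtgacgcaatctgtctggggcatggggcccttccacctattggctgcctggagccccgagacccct
The Chga window holds 2 copies of CAGCTG, whose first bases lie 179 and 116 bases before the gene start. That of Resp18 holds 1, which starts 73 bases before. Calca has no CAGCTG and 1 AGGTCA, which appears as TGACCT on the strand shown. The Dll3 window holds 1 CAGCTG and the Syp window none. Among 32851 promoter windows of this length, 13.0% hold CAGCTG and 14.0% hold AGGTCA. A match describes the letters only.

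Per kilobase of annotated exon, the order of the mean levels over the 16 libraries was Grp at 0.655 CPM per kb, Insm1 at 0.564, Syp at 0.289, Dll3 at 0.265, Calca at 0.175, Chga at 0.0693 and Resp18 at 0.0028. The ranges over libraries overlapped between every 2 neighbours in this order. Grp ran from 0.269 to 1.47 CPM per kb and Insm1 from 0.150 to 1.04, so these genes did not separate. The order differed by group: in A/J controls Insm1 (0.428) stood above Grp (0.361) and Dll3 (0.290) above Syp (0.226), and in A/J with BMS493 Calca (0.237) stood above Dll3 (0.210). Dll3 ran from 0.0460 to 0.468 CPM per kb and Syp from 0.142 to 0.505. On the same scale Hes1, the Notch-driven repressor of the fate, stood at 22.2 CPM per kb.

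Insm1 (ENSMUSG00000068154.6, chromosome 2) encodes a zinc finger transcription factor that acts in neuroendocrine differentiation. Its level was 3.09, 2.07, 1.93 and 3.21 CPM in replicates 1 to 4 of the B6 controls and 1.11, 1.77, 1.91 and 0.511 CPM in the A/J controls. It was 1.57, 1.78, 2.67 and 2.01 CPM in B6 with BMS493 and 1.67, 1.45, 0.465 and 0.756 CPM in A/J with BMS493. Every B6 control was above every A/J control, the closest pair by a narrow margin, and the groups with BMS493 overlapped. Between 9 and 60 fragments stood behind each value.

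Dll3 (ENSMUSG00000003436.12, chromosome 7) encodes a Notch ligand of the kind that blocks Notch within its own cell and is known as a surface marker of neuroendocrine tumours. It was at 1.08, 0.826, 1.19 and 0.131 CPM in B6 controls and at 0.909, 0.296, 1.33 and 0.632 CPM in B6 with BMS493. A/J controls had 0.675, 0.693, 0.865 and 1.08 CPM, and A/J with BMS493 had 0.928, 0.396, 0.419 and 0.655 CPM. All 4 groups overlapped, and replicate 4 of the B6 controls, with 2 fragments, was the lowest of the 16 libraries.

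Syp (ENSMUSG00000031144.16, chromosome X) encodes synaptophysin, a membrane protein of small secretory vesicles in neurons and neuroendocrine cells. Its level was 2.63, 2.15, 1.09 and 1.64 CPM in B6 controls and 1.57, 2.11, 1.27 and 1.84 CPM in B6 with BMS493. A/J controls had 0.868, 1.77, 1.32 and 0.737 CPM, and A/J with BMS493 had 1.30, 1.45, 1.21 and 1.11 CPM. All groups overlapped, and A/J with BMS493 had the narrowest range. Syp is undercounted, since 16.8% of its exon bases overlap the antisense gene Gm14703 and the libraries do not mark strand. The column without strand holds 492 Syp fragments over all libraries, 53.6% of the 918 in the 2 strand columns together, and part of the latter may come from Gm14703.

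Chga (ENSMUSG00000021194.7, chromosome 12) encodes chromogranin A, a core protein of dense-core granules. It was at or near the limit of detection, with 0 to 8 fragments per library and 64 in all. Its levels were 0.361, 0.330, 0.148 and 0 CPM in B6 controls and 0.151, 0.338, 0.133 and 0.115 CPM in B6 with BMS493. A/J controls had 0.0482, 0.173, 0.182 and 0.340 CPM and A/J with BMS493 had 0.278, 0.132, 0.326 and 0 CPM. Group means lay between 0.184 and 0.210 CPM, and each group's range overlapped the others. Resp18 (ENSMUSG00000033061.16, chromosome 1), a protein of the regulated secretory pathway, was counted with 1 fragment in all, in replicate 3 of A/J with BMS493. A count of 0 in the other 15 libraries allows up to 3 fragments each, so Resp18 was not detectable at this depth. The 2 strand columns hold 7 Resp18 fragments, and 3.88% of its exon bases overlap the antisense gene Gm28902.

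Calca (ENSMUSG00000030669.14, chromosome 7) encodes calcitonin and, by alternative splicing, the neuropeptide CGRP, which marks mature neuroendocrine bodies. It was present in every library with 1 to 22 fragments and 98 in all. Its levels were 0.258, 0.578, 0.247 and 0.131 CPM in B6 controls and 0.606, 0.0846, 0.133 and 0.230 CPM in B6 with BMS493. A/J controls had 0.0965, 0.216, 0.319 and 0.227 CPM. A/J with BMS493 had 1.02, 0.0440, 0.233 and 0.302 CPM, where replicate 1 was the highest of all libraries and replicate 2 the lowest. The counts do not separate the calcitonin transcript from the CGRP transcript.

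Grp (ENSMUSG00000024517.18, chromosome 18) encodes gastrin-releasing peptide, the bombesin-like peptide of fetal neuroendocrine cells. B6 controls had 1.34, 1.03, 2.18 and 1.31 CPM and A/J controls had 0.531, 0.476, 0.729 and 0.397 CPM. B6 with BMS493 had 0.757, 1.61, 1.80 and 0.517 CPM and A/J with BMS493 had 0.464, 0.968, 0.558 and 0.806 CPM. The control groups did not overlap, and the B6 BMS493 group spread over both. Grp counts were 7 to 44 fragments per library.

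**Figure D1:**
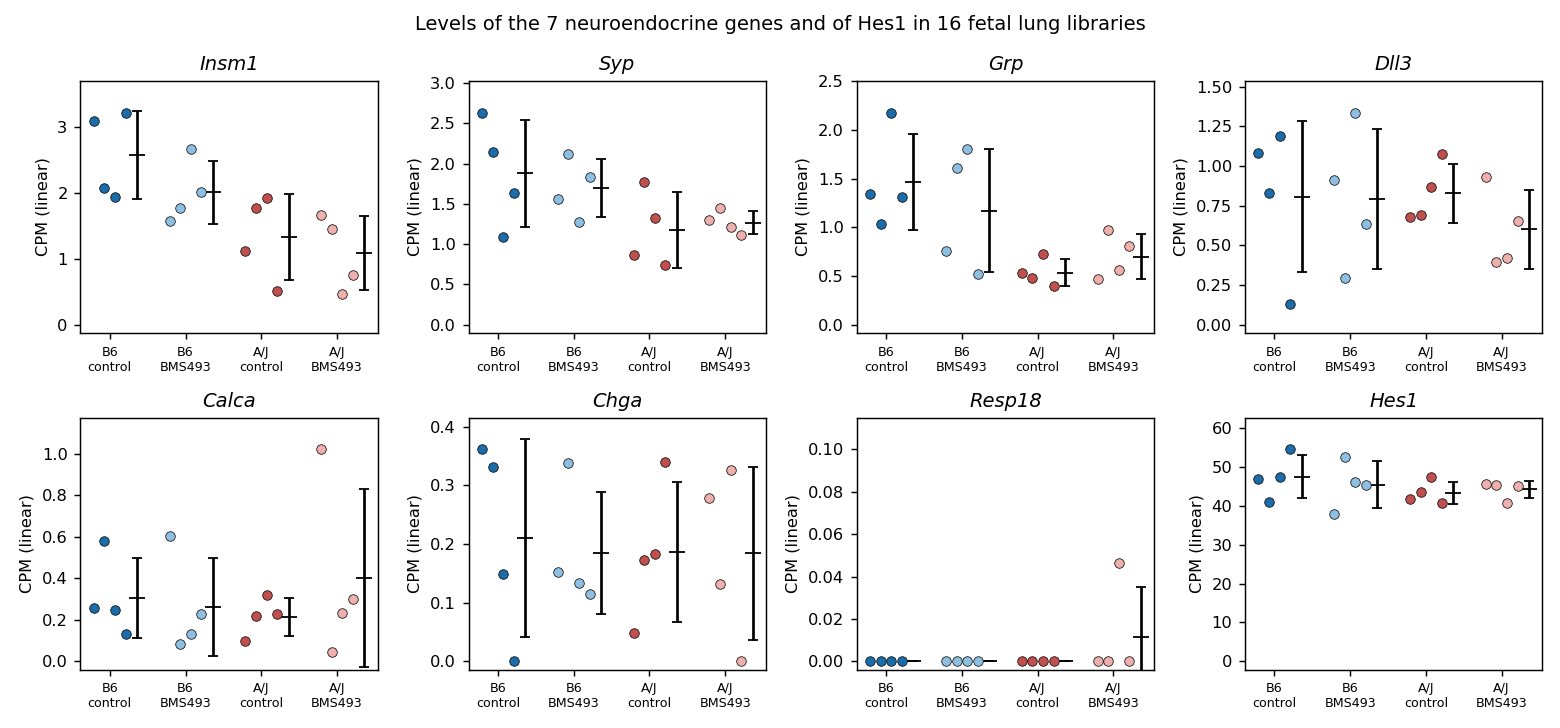
Level in CPM on a linear axis of each of the 7 neuroendocrine genes and of Hes1 in every library (points), with the mean and SD of 4 libraries (bars), by strain and treatment. Insm1 and Grp do not overlap between the strains in control lungs, and Resp18 is at 0 in 15 of 16 libraries.

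The first comparison asked whether BMS493 given to the dam changed these genes in B6 lungs. None of the 4 tested genes was called at an adjusted p under 0.05 in edgeR, where 0.423% of all 17276 tested genes were called. None had an unadjusted p under 0.05, and DESeq2 called 0 of them. Insm1 went from 2.58 ± 0.672 CPM to 2.01 ± 0.479 CPM (SD, n = 4 each), a log2 fold change of -0.36 with a 95% interval of -1.07 to 0.34 (adjusted p = 0.788). Grp had -0.32 with an interval of -1.08 to 0.43, Syp -0.14 with -0.74 to 0.47, and Dll3 -0.10 with -1.06 to 0.86. All 4 intervals include 0 and reach -0.74 or lower, so a fall of that size is not excluded. Without replicate 3 of the BMS493 group the log2 fold changes of Insm1 and Grp were -0.52 (adjusted p = 0.743) and -0.57 (adjusted p = 0.734), and without replicate 2 they were -0.31 and -0.54. Syp had -0.03 without replicate 3 and -0.27 without replicate 2. Dll3 turned from -0.45 without replicate 3 to 0.20 without replicate 2.

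In A/J lungs BMS493 called 0 of the 4 genes as well, with 0.486% of all genes called, none at an unadjusted p under 0.05 and 0 by DESeq2. The log2 fold changes were -0.30 for Insm1 (95% interval -1.07 to 0.46), -0.46 for Dll3 (-1.43 to 0.51), 0.38 for Grp (-0.48 to 1.24) and 0.09 for Syp (-0.54 to 0.73), each with an adjusted p of 1. Leaving out 1 library at a time moved them from -0.58 (without replicate 1 of A/J with BMS493) to -0.05 (without replicate 3) for Insm1, from -0.75 (without replicate 1) to -0.30 (without replicate 2) for Dll3, and from 0.17 (without replicate 2) to 0.57 (without replicate 3 of the A/J controls) for Grp. Averaged over both strains the values were -0.33 for Insm1, -0.28 for Dll3, 0.03 for Grp and -0.02 for Syp, with 0 of 4 called against 1.37% of all genes. The difference of the BMS493 effect between the strains was 0.70 for Grp (SE 0.56), the largest of the 4 in size, and 0 of 4 passed the test (adjusted p = 0.999 for each), where 0.00579% of all genes were called. DESeq2 called 0 of the 4 for the average and for the difference too.

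Calca and Chga were too low for the model and were compared by exact two-sided permutation tests on CPM, for which 4 libraries against 4 cannot give a p below 0.0286. Over 8 such tests, of BMS493 in each strain and of strain in each treatment, the lowest exact p was 0.514, for Calca between A/J and B6 controls. The largest difference was that of Calca in A/J, with 0.215 ± 0.0912 CPM in controls and 0.400 ± 0.428 CPM with BMS493 (SD, n = 4 each; exact p = 0.629), where replicate 1 alone was above the control range.

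Hes1 was measured beside them as the repressor of the fate and ran from 37.9 to 54.5 CPM over all libraries. Its BMS493 log2 fold change was -0.06 in B6 (SE 0.09, adjusted p = 0.892) and 0.03 in A/J (SE 0.09, adjusted p = 1). Averaged over the strains it was -0.02.

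The strains were compared next in control lungs. Grp was lower in A/J, at 0.533 ± 0.141 CPM against 1.47 ± 0.494 CPM in B6 (SD, n = 4 each), a log2 fold change of -1.44 (SE 0.39, 95% interval -2.25 to -0.62, adjusted p = 0.0120), and was lower in 4 of 4 libraries. It was the 1 gene called of 4 tested, against 16.9% of all genes called in either direction and 9.84% called lower. The call was lost without replicate 3 of the B6 controls, the highest library, where the log2 fold change was -1.18 (adjusted p = 0.0658), and in the first strand column (-1.34, adjusted p = 0.0785). Over all alternatives the adjusted p of Grp ran from 0.00424 to 0.0785.

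Insm1 had a log2 fold change of -0.92 between A/J and B6 controls (SE 0.35, 95% interval -1.64 to -0.20), an unadjusted p of 0.0145 and an adjusted p of 0.0730, which misses the threshold. It passed without replicate 3 of the A/J controls (-1.14, adjusted p = 0.0436), and its adjusted p ran from 0.0218 to 0.218 over all alternatives. Syp had -0.66 (SE 0.30, adjusted p = 0.144) and Dll3 -0.01 (SE 0.45, adjusted p = 0.994). The ranges of Insm1 and Grp did not overlap between the control groups, 2 of 4 tested genes, where 13.6% of all genes were lower without overlap. The median log2 fold change of the 4 was -0.79, against 0.01 over all genes tested.

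In BMS493 lungs 0 of the 4 genes were called between the strains, against 20.0% of all genes, with 1 at an unadjusted p under 0.05 and 0 called by DESeq2. Insm1 had a log2 fold change of -0.86 (SE 0.36, unadjusted p = 0.0263, adjusted p = 0.102), Grp -0.74 (adjusted p = 0.201), Syp -0.43 (adjusted p = 0.354) and Dll3 -0.36 (adjusted p = 0.659). Without replicate 3 of B6 with BMS493 Insm1 had -0.71 (adjusted p = 0.220), Syp -0.54, Grp -0.49 and Dll3 -0.02. Without replicate 2 they had -0.92 (adjusted p = 0.132), -0.30, -0.52 and -0.66. Between the strains Hes1 had -0.13 in controls (adjusted p = 0.372) and -0.04 in BMS493 lungs (adjusted p = 0.804).

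**Figure D2:**
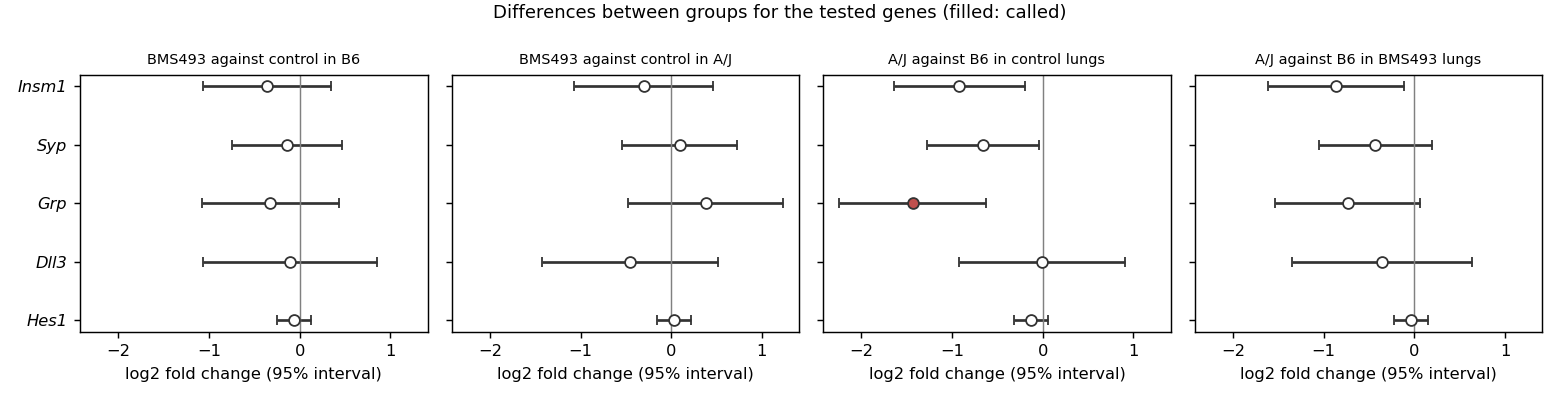
Log2 fold change with its 95% interval for the 4 tested neuroendocrine genes and Hes1 in 4 comparisons, where filled points are called at an adjusted p under 0.05. The intervals cross 0 in both BMS493 comparisons, and Grp (-1.44) is called lower in A/J control lungs.

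The other regulators of the fate were mostly low. Of 11 listed genes 3 were tested, and Neurod1 and Neurod4, factors of later endocrine differentiation, were at 0 in all 16 libraries. Nkx2-2 had 1 fragment in all, and Gfi1 had 1 to 10 per library. BMS493 called 0 of the 3 in B6 (0.423% of all genes) and in A/J (0.486%), and strain called 0 in control lungs (16.9%). In BMS493 lungs Mycl, a MYC family factor, was the 1 called of 3, where 20.0% of all genes were called, and was lower in A/J, at 24.7 ± 2.22 CPM against 37.8 ± 8.24 CPM in B6 (SD, n = 4 each; log2 fold change -0.62, adjusted p = 0.00213), a call that held without replicate 2 or 3 of B6 with BMS493. Prox1 and Hes6 were present at 5.75 to 10.7 CPM and 24.1 to 40.1 CPM over all libraries.

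Among genes of granules, peptide processing and amines, 10 of 21 were tested. Calcb, which encodes the second CGRP peptide, was at 1.21 to 1.82 CPM in A/J controls and 0.0989 to 0.459 CPM in B6 controls. With BMS493 it was at 0.396 to 1.86 CPM in A/J and 0.133 to 0.555 CPM in B6. Calcb and Calca share 0.715% of the 50-base windows of Calca, and mean Calca was 0.304 CPM in B6 and 0.215 CPM in A/J controls. Pcsk1, a protease that cuts prohormones, was at 0 to 0.182 CPM in A/J controls and 0.454 to 0.980 CPM in B6 controls. The filter on low counts keeps a gene near or above 0.486 CPM in enough libraries, and these 2 genes passed it through the strain where they are high. Such genes had to differ, so their values are a description, although both were called in both strain comparisons. In BMS493 lungs the Pcsk1 call was lost without replicate 2 of B6 with BMS493 (adjusted p = 0.144) or replicate 4 of A/J with BMS493 (adjusted p = 0.0510).

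For BMS493, 0.423% of all genes were called in B6 and 1.37% in the average over strains. Cpe, the carboxypeptidase that trims peptide hormones and is also made outside endocrine cells, was the 1 called of the 10 tested granule genes. In B6 it fell from 30.9 ± 1.63 CPM to 23.4 ± 2.57 CPM (SD, n = 4 each; log2 fold change -0.40, SE 0.09, adjusted p = 0.0368). This call was lost without replicate 2 of B6 with BMS493 or without any 1 of the 4 B6 controls, with adjusted p between 0.0746 and 0.163, and also in the first strand column (0.274) and with only the 8 libraries compared (0.150). Averaged over both strains Cpe had -0.29 (SE 0.06, adjusted p = 0.0129), which was lost in the first strand column (adjusted p = 0.185). In A/J alone 0 of the 10 tested genes were called, against 0.486% of all genes. Pam, which amidates peptides, was called lower in A/J controls (-0.24, adjusted p = 0.0299), and that call was lost without replicate 2 or 4 of the A/J controls or any 1 of the 4 B6 controls, with adjusted p between 0.0555 and 0.103. Beside Calcb and Pcsk1, Pam was the 1 listed gene called between the strains in controls, where 16.9% of all genes were called. In BMS493 lungs 2 of the 10 were called higher in A/J and 1 lower, against 20.0% of all genes. Beside Calcb and Pcsk1, Cpe was called higher there (0.35, SE 0.09, adjusted p = 0.00583), a call kept when any 1 of the 8 libraries was left out.

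Vesicle and excitability genes were more abundant, and 14 of 15 were tested. Uchl1, the ubiquitin hydrolase known as PGP9.5 that marks neurons and neuroendocrine cells, was at 30.2 ± 0.831 CPM in B6 and 16.8 ± 2.11 CPM in A/J controls (SD, n = 4 each; log2 fold change -0.85, SE 0.10, adjusted p = 2.93e-07). It was lower in A/J with BMS493 too (-1.09, SE 0.10, adjusted p = 3.33e-09), and 12.6% of its windows also occur in the overlapping gene Uchl1os. Syt13, a synaptotagmin, was lower in A/J in controls (-0.77, SE 0.16, adjusted p = 0.000951) and in BMS493 lungs (-0.74, SE 0.16, adjusted p = 0.00116). The Uchl1 and Syt13 calls in BMS493 lungs held without replicate 2 or 3 of B6 with BMS493. Piezo2, a mechanosensitive channel, was at 96.3 ± 2.36 CPM in B6 and 77.8 ± 5.54 CPM in A/J controls (SD, n = 4 each; log2 fold change -0.31, adjusted p = 0.00117). Rimbp2, a protein of release sites, was at 0.455 to 0.851 CPM in A/J controls and 0 to 0.165 CPM in B6 controls, and it too passed the filter through the strain where it is high. In controls 3 of the 14 were called lower in A/J, where 9.84% of all genes were. In BMS493 lungs 4 of the 14 were, where 2077 of 17276 tested genes were called lower. Of these Celf3, an RNA-binding protein, had an adjusted p of 0.0467, and its call was lost without replicate 1, 2 or 4 of B6 with BMS493 or replicate 1, 3 or 4 of A/J with BMS493, with adjusted p up to 0.154. It was also lost without a filter (adjusted p = 0.0886), in the first strand column (0.103) and with only the 8 libraries compared (0.0916).

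**Figure D3:**
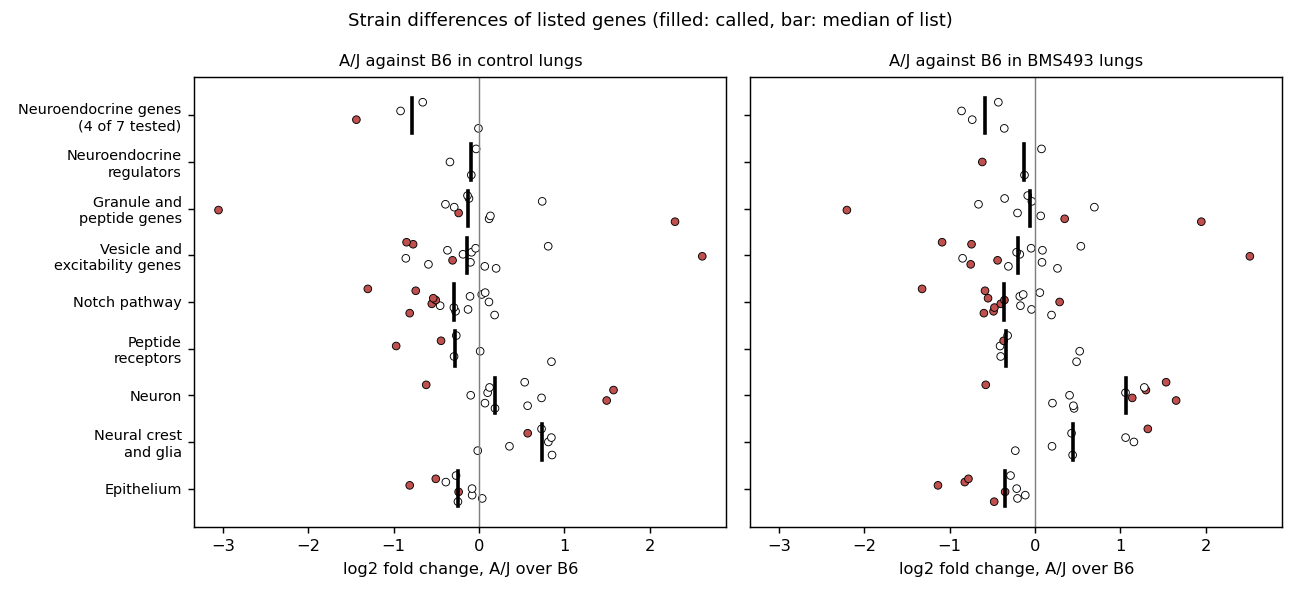
Log2 fold change of A/J over B6 for each tested gene of the neuroendocrine genes and of 8 other gene lists, in control and BMS493 lungs, where filled points are called and the bar is the median of the list. The median of the 4 neuroendocrine genes is -0.79 in control lungs and -0.58 in BMS493 lungs, and the neuron median is above 0 in both.

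Notch genes set which progenitors become neuroendocrine, and 15 of 16 listed genes were tested. In control lungs 6 were called lower in A/J and none higher, where 9.84% of all genes were called lower. They include the ligands Dll1 (-0.81, adjusted p = 0.00197) and Jag2 (-0.51, adjusted p = 0.00171), the ligand-binding modifier Lfng (-0.54, adjusted p = 0.00130) and the target Heyl (-0.55, adjusted p = 0.000454). Rbpj, the DNA-binding partner of Notch, had -1.30, but 9.69% of its 50-base windows also occur in Rbpj-ps3. The copy had 95 fragments in B6 controls and 1093 in A/J controls while Rbpj had 11484 and 4893, so the Rbpj value is uncertain. In BMS493 lungs 8 were called lower and 1 higher, against 20.0% of all genes called. Dll1 lost its call there without replicate 2 (adjusted p = 0.0632) or 3 (0.0557) of B6 with BMS493 and without replicate 3 (0.0687) or 4 (0.0622) of A/J with BMS493. The calls of Dll4, Jag1, Jag2 and Nrarp in this comparison were not followed over the fits with libraries left out. For BMS493, Hey2 was the 1 of 15 called in the average over strains (-0.54, adjusted p = 0.0353), where 1.37% of all genes were called, and the call was lost without any 1 of 11 of the 16 libraries, with adjusted p up to 0.116, and in the first strand column (0.494).

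Receptors for the peptides were tested in full, 6 of 6. Grpr, the receptor of the Grp peptide, ran from 0.133 to 1.06 CPM over all libraries and was not called in any comparison. Calcrl, the receptor that binds CGRP with RAMP1, was at 27.8 to 63.2 CPM. Ramp2, which turns Calcrl into an adrenomedullin receptor, was lower in A/J controls (-0.44, SE 0.08, adjusted p = 0.000320) and in BMS493 lungs (-0.37, SE 0.08, adjusted p = 0.00201). Of the 6, 2 were called lower in A/J controls, against 9.84% of all genes. In BMS493 lungs 1 was, where 2077 of 17276 tested genes were called lower. The other call in controls, Ramp1 (-0.97, adjusted p = 0.0202), was lost without replicate 1 or 2 of the B6 controls or replicate 2, 3 or 4 of the A/J controls, with adjusted p up to 0.0648. BMS493 itself called 0 of the 6 in B6 (0.423% of all genes) and in A/J (0.486%).

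Genes of other cells that carry some of these RNAs moved with the strain too, and their part in the results above was not tested. Summed epithelial markers (9 genes, all tested) had 1142 to 1176 CPM in B6 controls, 861 to 1042.5 in A/J controls, 1186 to 1637 in B6 with BMS493 and 937 to 1081 in A/J with BMS493. In controls 3 of the 9 were called lower in A/J, with a median log2 fold change of -0.25, where 9.84% of all genes were called lower. In BMS493 lungs 5 of 9 were, with a median of -0.35, where 2077 of 17276 tested genes were called lower. Of the 5, Cdh1, the E-cadherin gene, lost its call without replicate 1, 3 or 4 of A/J with BMS493, without a filter and with only the 8 libraries compared, with adjusted p up to 0.0800. Proximal epithelium, the airway compartment that holds neuroendocrine cells, summed to 46.1 to 57.6 CPM in B6 and 26.5 to 36.3 CPM in A/J controls, and to 35.7 to 77.2 CPM in B6 and at most 31.9 CPM in A/J with BMS493. The 7 neuroendocrine genes summed to 6.43 to 8.77 CPM in B6 and 3.29 to 5.33 CPM in A/J controls, and to 5.34 to 7.34 CPM in B6 and 3.26 to 5.66 CPM in A/J with BMS493. Neither sum overlapped between the control groups, and in BMS493 lungs the neuroendocrine sum overlapped and the proximal sum did not. Of single genes, 13.6% were lower in A/J controls without overlap. Insm1 and Grp were among them and are part of the neuroendocrine sum, so that sum repeats their result. Of the 7 tested proximal genes 2 were called lower in A/J controls, against 9.84% of all genes. In BMS493 lungs 4 were, where 2077 of 17276 tested genes were called lower. Both counts include Cyp2f2, which passed the filter on low counts through B6, so neither count is a test against these shares. Much of the gap in the proximal sum came from 1 gene: Scgb3a2, a secretoglobin of airway secretory cells, was at a mean of 14.6 CPM in B6 and 1.86 CPM in A/J controls, out of mean sums of 50.6 and 30.3 CPM. Of the 7 tested proximal genes 6 were below 0 in A/J controls, with a median log2 fold change of -1.03. Sox2, the factor of the proximal airway, had -0.11 (22.6 and 20.9 CPM) and Trp63, a basal cell factor, 0.18. Mean levels in B6 and A/J controls were 2.84 and 1.16 CPM for Foxj1, 6.27 and 4.20 CPM for Krt15, and 0.482 and 0.230 CPM for Upk3a. Scgb3a2 had -2.94 in controls (SE 0.49, adjusted p = 0.000944). Cyp2f2, an enzyme of club cells, was at 1.34 to 3.02 CPM in B6 and 0.0482 to 0.303 CPM in A/J controls, and it passed the filter through B6, so its values are a description. Distal epithelium had 2 of 8 genes called lower in A/J controls, with Sftpc at -1.79 (SE 0.41, adjusted p = 0.00857), and a median of -0.07, where 9.84% of all genes were called lower. The other call, Lamp3 (-0.94, adjusted p = 0.0211), was lost without replicate 3 of the B6 controls or replicate 2, 3 or 4 of the A/J controls, with adjusted p up to 0.0684.

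Neuron markers, which would share Insm1, Syp and Uchl1, summed to 38.6 to 42.6 CPM in B6 and 37.0 to 43.7 CPM in A/J controls, and Chat was at 0 in all libraries. Of 11 tested neuron genes, A/J controls had 2 called higher and 1 called lower, against 16.9% of all genes called, and the median was 0.19. Isl1, a neuronal and endocrine factor, had 1.50 (adjusted p = 7.32e-05), whereas Ret, a receptor of enteric neurons, had -0.62 (adjusted p = 0.000984). In BMS493 lungs 10 of the 11 were above 0 for A/J over B6 with a median of 1.06, and 4 were called higher and 1 lower, against 20.0% of all genes. Of the 4, Isl1 and Tubb3 kept their calls when any 1 of the 8 libraries compared was left out and the other two did not, and Tubb3 lost its call in the first strand column (adjusted p = 0.0601). For BMS493 in B6, 9 of the 11 were below 0 with a median of -0.45, and 0 were called, against 0.423% of all genes. With BMS493 the neuron sum was 26.0 to 39.1 CPM in B6 and 33.4 to 41.4 CPM in A/J. Tubb3, a neuronal tubulin, was the 1 neuron gene called in the average over strains (-1.03, adjusted p = 0.0292, against 1.37% of all genes called), a call lost without any 1 of 9 of the 16 libraries, with adjusted p up to 0.0878, and in the first strand column (0.0540).

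Neural crest and glial markers summed to 94.1 to 100.3 CPM in B6 and 84.5 to 111 CPM in A/J controls, but Erbb3, which epithelium also expresses, made up most of it, with a mean of 90.0 CPM in B6 and 89.1 CPM in A/J controls. Of the 7 genes, 6 had a log2 fold change above 0 in A/J in each treatment, with a median of 0.73 in controls and 0.44 in BMS493 lungs. Tissue that could be dissected with the lung was also looked for. Thyroid markers summed to 0.980 to 1.58 CPM in B6 controls, 0.592 to 1.33 CPM in B6 with BMS493, 0.865 to 1.13 CPM in A/J controls and 0.742 to 1.40 CPM in A/J with BMS493. Tg, the thyroglobulin gene, had 1 to 12 fragments per library and means of 0.527 CPM in B6 and 0.209 CPM in A/J controls, and Slc5a5 had 1 to 15 fragments. Pax8 was at 0 in 14 of the 16 libraries. Calca is also expressed by thyroid C cells, and the part of thyroid tissue in Calca was not tested. Thymus markers summed to at most 0.525 CPM, with Cd3e at 0 in all. Endocrine markers of the foregut summed to at most 0.397 CPM, with Sst at 0 in all.

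The genes were also compared with each other within a strain. Over 12 pairs of Insm1, Syp, Grp and Dll3, 6 in each strain over 8 libraries, no correlation of log2 CPM passed after Benjamini-Hochberg adjustment of exact permutation p-values. The lowest exact p was that of Grp and Dll3 in A/J, with Spearman's rho -0.81 (exact p = 0.0218, adjusted 0.261) and Pearson's r -0.60 (exact p = 0.121, adjusted 0.726). Without the 2 libraries farthest from the median of Grp, r was -0.32. By Pearson's r the lowest exact permutation p was that of Insm1 and Syp in A/J (r 0.65, exact p = 0.0844, adjusted 0.726). Their r was 0.64 without the 2 libraries farthest from the median of Insm1. Insm1 was uneven within A/J. Replicate 4 of the controls and replicates 3 and 4 with BMS493 had 0.465 to 0.756 CPM of Insm1, and the other 5 A/J libraries had 1.11 to 1.91 CPM.

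The genes whose pattern was most like the mean of the 4 tested members were found by the lower of the 2 within-strain Pearson correlations over 8 libraries each, among 14542 genes with a mean of at least 1 CPM. The first were Tatdn2 at 0.87, Tbxa2r, the thromboxane receptor gene, at 0.81 and Gmfg at 0.79. Gm3226 (0.77), Vwa1 (0.73), Shc4 (0.73), Id3 (0.73), Mybpc3 (0.72), Txndc15 (0.71) and Nacc2 (0.71) completed the 10. Hes1 ranked 2016 at 0.21. These are the top values of many compared over the same 16 libraries and describe them only.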

How the data were processed

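For each library the authors deposited a file of unnormalized counts. It lists 57180 genes after 4 lines without a gene name, which held 23.1% to 28.3% of the fragments and were left out. Per the submitters' processing notes the tools were FastQC, cutadapt and STAR with the build GRCm39. The annotation release is not given in the sources used here. The reference is built from C57BL/6J, and the effect of this on A/J counts was not tested. The file layout has 1 column without strand and 2 by strand. The first strand column held 51.0% to 52.0% of the stranded counts, so the column without strand was used, which drops fragments over genes on opposite strands. Between 15207539 and 24146224 counts per library were assigned to genes. Symbols, exon lengths and overlaps came from GENCODE M21, to which 51884 genes matched, so no gene coordinates are given other than those of the RefSeq windows.

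In edgeR 4.0.16 (R 4.3.3) filterByExpr kept 17276 genes and removed 39904. Libraries were scaled by TMM, and all 16 libraries entered a robust quasi-likelihood model with a term for each of the 4 groups (12 residual degrees of freedom). Every adjusted p comes from this model unless another test is named. It is two-sided and adjusted over all tested genes by the Benjamini-Hochberg method, with calls under 0.05. Log2 fold changes have the SE of that test. CPM are means ± SD over 4 libraries, and CPM per kb divide by the exon bases of M21. Permutation tests used scipy 1.17.1. The steps were tested on simulated data.

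The named genes were the 7 members, Hes1, and in each list and contrast up to 5 called genes with the smallest p, of which the text gives a choice. One further gene of that rule is not reported here and was taken out of its list. The members and lists were chosen with earlier results of these data known. Alternatives were RLE scaling, DESeq2 1.42.0, no filter, a mean of at least 1 CPM, a replicate block, a fit on only the 8 libraries compared, the set of library names, either way of using the strand columns, and leaving out each library. The floor of 3 counts covers counting error only, because PCR copies cannot be told from molecules here.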

Additional observations from a re-analysis of the deposited data

Results flagged for a closer look

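Of 29 sets of 4 libraries with any spread (the 7 members and Hes1 in each group), 3 held a library far from the other 3 by the 95% limit of Dixon's ratio, the gap to the nearest library over the whole range. Chance alone flags about 1 set in 20.

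Chga in B6 with BMS493 was at 0.338 CPM in replicate 2 against 0.115 to 0.151 CPM in the others (ratio 0.836). The single Resp18 fragment made replicate 3 of A/J with BMS493 stand at 0.0465 CPM against 0 in the others (ratio 1), which is 1 count. Hes1 in A/J with BMS493 was lowest in replicate 3, at 40.8 CPM against 45.1 to 45.5 CPM in the others (ratio 0.900), and that library was also the lowest of the 16 for Insm1, at 0.465 CPM.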

How the results depend on the processing

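Over 92 results for single genes, 1625 values under alternatives were computed, of which 1484 kept their direction and side of the threshold, 86 lost a call, 4 gained one and 51 turned sign, 39 of them with 1 library left out. In control lungs the count of neuroendocrine genes called between strains was 1, became 2 without a filter and with only the 8 libraries compared, 0 with a filter at a mean of 1 CPM (Grp is then not tested) and 0 in the first strand column, and ran from 0 to 2 when leaving out 1 library. In BMS493 lungs it was 0 and became 1 without a filter (Insm1, adjusted p = 0.0482). None of the values that turned belongs to a called result. In the first strand column, which holds about as many counts as the other, log2 fold changes turned for Syp in B6 (0.054) and on average (0.12), Hes1 in A/J with BMS493 (-0.022) and between strains in BMS493 lungs (0.0022), Grp on average (-0.17), Insm1 in the difference of effects (-0.19), and Dll3 between strains (0.066 in controls, 0.048 with BMS493). Summing both strand columns turned Syp on average (0.091) and Dll3 between controls (0.0015), and DESeq2 turned the latter (0.012). When leaving out 1 library, BMS493 values ran from -0.45 to 0.20 for Dll3, -0.14 to 0.021 for Hes1 and -0.33 to 0.067 for Syp in B6, from -0.0026 to 0.073 for Hes1 and -0.067 to 0.36 for Syp in A/J, and on average from -0.098 to 0.16 for Grp, -0.056 to 0.025 for Hes1 and -0.12 to 0.11 for Syp. The difference of effects ran from -0.22 to 0.31 for Insm1. Between strains Dll3 in controls ran from -0.32 to 0.22 and Hes1 in BMS493 lungs from -0.12 to 0.039. The cause was not tested.

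Replicate numbers did not pair the libraries: deviations of libraries with the same number correlated at -0.147 to 0.145. With the number as a replicate block, no call of the 92 results changed (Grp between controls, adjusted p = 0.00985), and Dll3 between controls turned to 0.045. Counts of 0 to 24 fragments per library limit Calca, Chga, Resp18 and Dll3. DESeq2 gave no adjusted p for Dll3 in B6.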

Other observations

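Genes of the amine and appetite-peptide products of endocrine cells were also counted. Ddc, the decarboxylase that makes serotonin and dopamine, was at 7.47 to 12.6 CPM over the 16 libraries, and Slc18a2, a vesicular amine transporter, at 2.80 to 6.26 CPM. Slc18a1, the transporter form of endocrine cells, ran from 0.264 to 1.52 CPM. Tph1, the first enzyme of serotonin synthesis outside the brain, had 1 to 9 fragments per library, and Ghrl, the ghrelin gene, had 1 to 14. Ddc, Slc18a1 and Slc18a2 were called in no comparison, and Tph1 and Ghrl did not pass the filter.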
